A study of Mus musculus with 8 samples.

Results

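The Wnt feedback inhibitors described here are 10 mouse genes whose products act outside the cell or at its membrane to hold Wnt signalling down: Wif1, Sfrp1, Sfrp5, Notum, Dkk2, Dkk3, Rnf43, Znrf3, Apcdd1 and Nkd1. They were taken as every probe of the authors' value table whose gene name in the array files is one of these symbols or an older alias, which gave 14 probes of 41174 and, with the brightest kept probe standing for a gene, 10 genes of 21633 tested. Notum is listed on the array under its older name 5730593N15Rik. Rnf43, Apcdd1, Nkd1 and Sfrp1 have 2 probes each and the other 6 genes have 1. All 14 probes passed the filter on low values.

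RNA came from 4 colon adenomas and 4 normal colon samples of adult C57BL/6 mice, 1 one-colour Agilent array per sample. The tumors carry the genotype Tcf4Het ApcHet and the normals TCF4WT ApcHet, so every mouse, controls included, carries 1 mutant copy of Apc (ApcMin in the protocol), and the tumors are also heterozygous for Tcf4, a gene now named Tcf7l2. Tumor state and Tcf4 genotype cannot be told apart in any difference below. RNA was taken from a distal stretch of 2.5 cm in littermates, per the protocol, and the design text calls the tissues independent. No label states an age in weeks, nor whether a normal sample lay beside tumors.

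Wnt proteins carry a lipid that they need to bind Frizzled receptors, and the signal keeps beta-catenin from destruction so that it can act with TCF factors on target genes. Apc is part of the complex that destroys beta-catenin. Several target genes of this pathway encode inhibitors of the pathway itself, which is why they are called feedback inhibitors. Some of these bind Wnt or strip its lipid outside the cell, some block the co-receptor, and others remove Frizzled from the membrane or act on dishevelled just inside it. In gut epithelium this signal maintains crypt stem cells, and loss of Apc turns it on without ligand.

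Value table and scanner files assign arrays to samples differently. Of 8 columns, 4 matched a scanner file with a Spearman correlation of 1.0, and only 1 of these, tumor 1, matched the file of its own sample. Columns normal 1 and normal 2 matched the files labelled normal 2 and normal 3. Column tumor 2 matched the file labelled normal 4, so for it the group label differs too. Samples are therefore named by the label of their column in the value table. The label is taken as given, and no sample was moved. The column labelled normal 3 stands apart from the other normals: over all genes its Pearson correlation was 0.947 to 0.965 with tumor columns and 0.872 to 0.941 with those of the remaining normals. The other normals are not uniform: normal 1 was at 0.925 to 0.956 with tumors and 0.938 to 0.941 with normals. Normals 2 and 4 correlated at 0.987. The result of each member, and the counts of the other gene lists, are given with and without normal 3. The labelled tissue was checked on marker genes: the distal colon gene Hoxb13 was at 15.46 ± 0.15 in tumors and 16.04 ± 0.14 in normals (SD, n = 4), and the list mean of 6 distal colon genes was 12.99 to 13.40 in tumors and 13.98 to 14.15 in normals. In normal 3 that mean was 14.15. Of these 6 genes 4 fell in tumors, 3 with the title numbers as pairs in a block and 4 without normal 3. Over all 21633 genes 1632 fell, 1119 with the block and 4278 without normal 3. The colonocyte list of 4 genes holds Car1, Aqp8, Slc26a3 and the mucin gene Muc2, which marks goblet cells. Its mean was 14.73 to 16.12 in tumors, 16.94 in normal 3 and 17.26 to 17.41 in normals 1, 2 and 4. Muc2 was at 15.9 in normal 3, against 16.98 to 17.81 in normals 1, 2 and 4. Car1, Aqp8 and Slc26a3 were at 17.27, 18.44 and 16.14 in normal 3, near or within their range in the other normals. Of those 4 genes the chloride exchanger gene Slc26a3 and the water channel gene Aqp8 fell by 2.51 and 2.04 on the log2 scale (limma adjusted p = 0.0201 and 0.0317, blocked 0.0394 and 0.0517), and all 4 did without normal 3. The mean of 7 small intestine genes was highest in normal 3, at 11.21, with 8.98 to 9.62 in normals 1, 2 and 4 and 9.16 to 10.65 in tumors. The part of these cell types in the members' differences was not tested. Levels are log2 and quantile-normalised, a value of 5.59 marks the upper edge of background, and levels of different probes are not compared with each other.

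To show the sequence at the start of the genes that moved most, 250 bases before the RefSeq transcription start (GRCm38.p6) were read for the members that have an entry, Wif1, Dkk2, Nkd1, Rnf43 and Sfrp5, 6 windows in all because Rnf43 has 2. Notum, Dkk3, Znrf3, Apcdd1 and Sfrp1 are named only. The TCF-type motifs CTTTGAA and CTTTGAT, searched on both strands, occurred in 0 of these 6 windows, against 7.48% of 32851 windows of all genes. The shorter core CTTTG, chosen after that search and shown in capitals, occurred on either strand in 2 of 6 windows against 48.6% of all. The windows of Wif1 (chr10:121033754-121034003), Dkk2 (chr3:132085042-132085291) and Nkd1 (chr8:88527383-88527632), all on the plus strand, are shown because these are the members with large differences that have an entry. No match says only that these letters are not in these windows.
Wif1: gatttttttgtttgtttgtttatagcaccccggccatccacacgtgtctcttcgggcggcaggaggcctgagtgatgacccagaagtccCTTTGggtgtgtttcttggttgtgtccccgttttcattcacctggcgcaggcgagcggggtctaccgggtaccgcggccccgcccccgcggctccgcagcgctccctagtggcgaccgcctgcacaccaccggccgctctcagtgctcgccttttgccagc
Dkk2: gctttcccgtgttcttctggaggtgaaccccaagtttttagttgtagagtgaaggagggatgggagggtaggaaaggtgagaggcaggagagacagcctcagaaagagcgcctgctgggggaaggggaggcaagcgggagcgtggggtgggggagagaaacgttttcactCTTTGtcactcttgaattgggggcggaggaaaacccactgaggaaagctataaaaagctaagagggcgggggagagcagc
Nkd1: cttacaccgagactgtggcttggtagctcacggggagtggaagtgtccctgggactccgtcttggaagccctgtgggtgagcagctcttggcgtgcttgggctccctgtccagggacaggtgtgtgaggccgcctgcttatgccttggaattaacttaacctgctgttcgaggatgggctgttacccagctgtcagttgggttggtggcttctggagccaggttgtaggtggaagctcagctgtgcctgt

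Of the 10 genes, 8 rose in tumors, 0 fell and 2 did not pass the test (limma, Benjamini-Hochberg adjusted over all 21633 genes, threshold 0.05), against a background of 7.00% of all genes called higher. The 8 were Wif1, Notum, Dkk2, Apcdd1, Nkd1, Dkk3, Rnf43 and Znrf3, and 7 of them rose at least 2-fold, against 4.05% of all genes. In the same 8 genes the tumor and normal columns did not overlap, against 11.9% of all genes apart in that direction. The median difference over the 10 genes was 2.71 log2 units and that over all genes tested was 0.15, or 0.02 after each column was centred on its median. Members were chosen with earlier results of these data known, so these counts and shares are a description and not a test of the group. In bulk tissue a change in the number of cells of a type and a change in RNA per cell cannot be told apart.

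**Figure D1:**
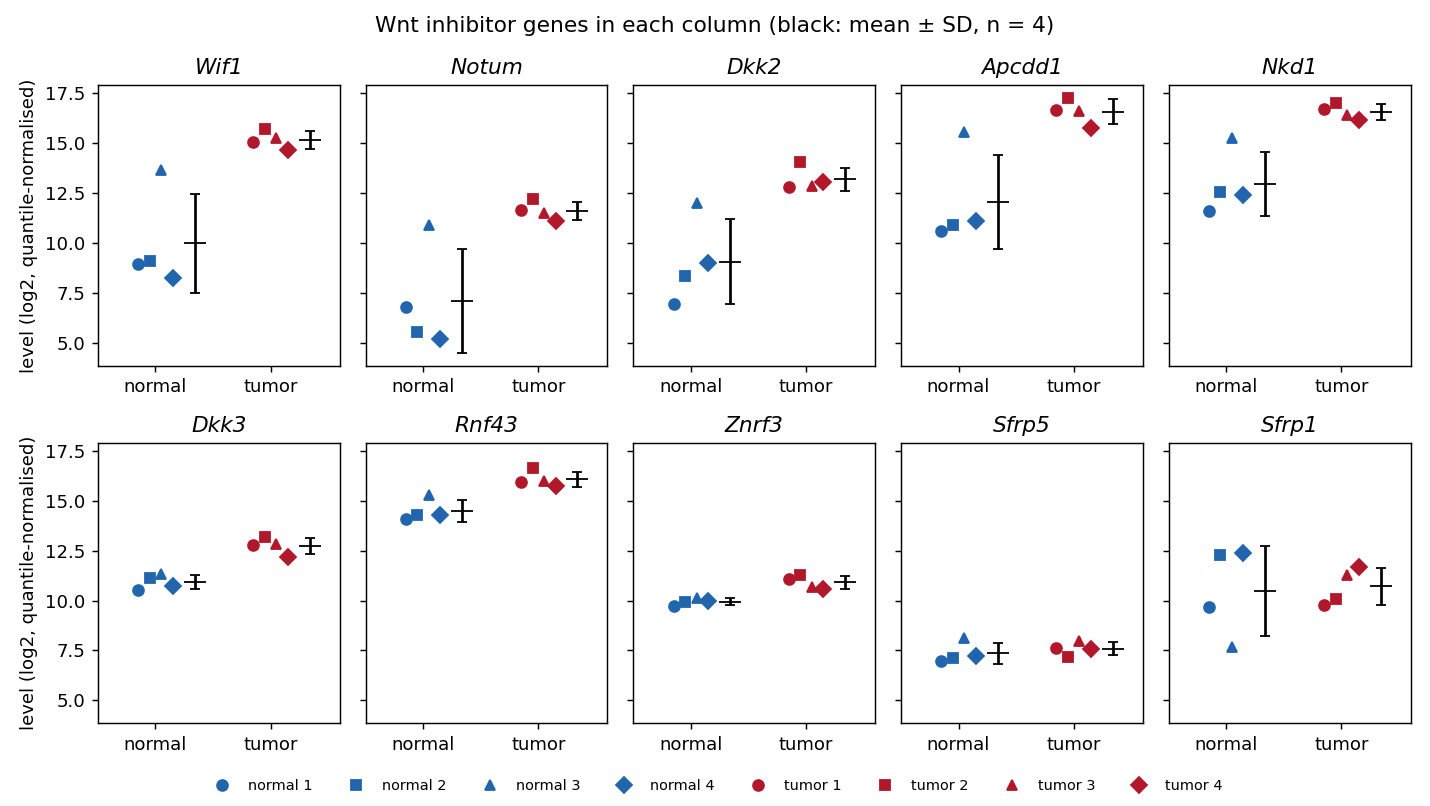
Log2 level of each of the 10 genes in the 4 normal (blue) and 4 tumor (red) columns, 1 symbol per column, with the group mean and SD in black. In 8 genes every tumor lies above every normal, the triangle of normal 3 lies between the other normals and the tumors, and Sfrp5 and Sfrp1 overlap. Levels of different genes come from different probes and are not comparable.

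Wif1, a secreted protein that binds Wnt in the extracellular space, had the largest difference of the 10. Its probe lies on chromosome 10 at 120503083 to 120503142 (mm8, plus strand). Its log2 level was 15.05, 15.72, 15.25 and 14.63 in tumors 1 to 4 and 8.95, 9.08, 13.65 and 8.23 in normals 1 to 4. All tumors were above all normals, and normal 3 stood 4.90 above the mean of the other normals and 0.97 below the lowest tumor. The mean was 15.16 ± 0.45 in tumors and 9.98 ± 2.48 in normals (SD, n = 4), a rise of 5.18 ± 1.12 (SE), 36.3-fold (limma adjusted p = 0.027, blocked on pairs 0.0474). Without normal 3 the rise was 6.41 ± 0.31 (SE), 84.9-fold (adjusted p = 0.000178).

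Notum, a secreted enzyme that removes the lipid from Wnt, was near background in 3 of the normals. Its probe lies on chromosome 11 at 120470297 to 120470356 (mm8, minus strand). Its log2 level was 11.63, 12.21, 11.50 and 11.10 in tumors 1 to 4 and 6.79, 5.56, 10.88 and 5.17 in normals 1 to 4. Normal 3 was only 0.22 below the lowest tumor and 5.04 above the mean of the other normals, of which normals 2 and 4 were below 5.59. In the scanner files of columns normal 1 and normal 2 the probe was not well above background. Notum rose by 4.51 ± 1.18 (SE), with a limma adjusted p of 0.0438. The call was lost with the pairs as a block (adjusted p = 0.0638) and without the filter on low values (adjusted p = 0.0575). Without normal 3 the fitted difference was 5.77 ± 0.43 (SE, adjusted p = 0.000454). Normals 1 and 2 were set to no less than their own background limit, and normal 4, which has none, to no less than 5.59. On those limits Notum was at least 37.8-fold higher in tumors than in normals 1, 2 and 4.

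Dkk2, a secreted dickkopf protein that binds the LRP co-receptors of Wnt, has its probe on chromosome 3, bases 132116699 to 132116758 (mm8, plus strand). Its log2 level was 12.80, 14.05, 12.84 and 13.05 in tumors 1 to 4 and 6.93, 8.33, 11.98 and 9.0 in normals 1 to 4. The groups did not overlap, and normal 1, in whose scanner file the probe was not well above background, was the lowest column. Dkk2 rose by 4.12 ± 0.98 (SE), 17.4-fold (limma adjusted p = 0.0341, 0.0593 with the pairs as a block). Without normal 3 the rise was 5.1 ± 0.53 (SE), 34.2-fold (adjusted p = 0.0016). Both folds rest in part on normal 1, whose 6.93 is below that column's own background limit of 7.7.

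Dkk3, a divergent member of the same family whose effect on Wnt signalling is less settled, has its probe on chromosome 7, bases 111908495 to 111908554 (mm8, minus strand). Its log2 level was 12.77, 13.17, 12.81 and 12.19 in tumors 1 to 4 and 10.53, 11.12, 11.34 and 10.72 in normals 1 to 4. Here normal 3 lay close to the other normals, 0.56 above their mean and 0.85 below the lowest tumor. Dkk3 rose by 1.81 ± 0.26 (SE), 3.5-fold, and its limma adjusted p of 0.0149 was the lowest of the 10 genes. Without normal 3 the rise was 1.94 ± 0.26 (SE, adjusted p = 0.0035).

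Sfrp1 and Sfrp5 are secreted proteins with a domain like that of Frizzled receptors, with which they bind Wnt, and neither passed the test. The Sfrp1 probe on chromosome 8 at 24913185 to 24913244 (mm8, plus strand) read 9.77, 10.1, 11.29 and 11.68 in tumors 1 to 4 and 9.67, 12.27, 7.68 and 12.36 in normals 1 to 4. The tumors lay inside the range of the normals, which spanned from normal 3, the lowest column, to normal 4, the highest. The Sfrp1 difference was 0.22 ± 1.08 (SE, limma adjusted p = 0.888), and its sign depended on the columns used: without normal 3 it was -0.72 ± 0.78 (adjusted p = 0.461), without tumor 4 it was -0.11, without normal 1 it was -0.06 and with array quality weights it was -1.40. The other Sfrp1 probe, at 24913873 to 24913932, gave -0.40 ± 1.03 (SE, adjusted p = 0.779 over all probes) and had its lowest value, 4.36, in normal 3 as well.

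Sfrp5 has a probe on chromosome 19, bases 42252032 to 42252091 (mm8, minus strand) that stayed dim. Its log2 level was 7.60, 7.19, 7.99 and 7.56 in tumors 1 to 4 and 6.95, 7.12, 8.14 and 7.23 in normals 1 to 4, and normal 3 was the highest column of all. The groups overlapped, and the difference was 0.23 ± 0.30 (SE, limma adjusted p = 0.564), or 0.49 ± 0.21 without normal 3 (adjusted p = 0.0836). With array quality weights it passed, at 0.46 ± 0.17 (adjusted p = 0.0396), under which 41.7% of all genes were called higher. The probe was not well above background in the scanner file of column normal 1.

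Sfrp1 was set beside markers of the cell types that bulk colon holds. The mean of 8 fibroblast and matrix genes was lowest in normal 3 at 12.38, followed by normal 1 at 13.18, and reached 14.78 in the other normals and 14.28 to 15.18 in tumors. The mean of 8 smooth muscle genes was 13.69 in normal 3, 13.99 to 15.14 in tumors and 14.65 to 15.93 in normals 1, 2 and 4. The mean of 8 epithelial genes was 17.29 in normal 3, 16.95 to 17.24 in tumors and 17.37 to 17.72 in normals 1, 2 and 4. Of these lists, 1 fibroblast gene of 8 rose (Vim, by 1.63), 0 of 8 smooth muscle genes changed and 2 of 8 epithelial genes fell, Krt20 and Cdh17, both lost with the pairs as a block (limma adjusted p = 0.0528 each). Over all genes 7.00% were called higher and 7.54% lower, and lists of 8 genes are too short to be told from those shares. Without normal 3, 2 fibroblast genes rose, 3 smooth muscle genes fell, and 1 epithelial gene rose and 5 fell. In that fit 31.7% of all genes were called higher and 4278 of 21633 lower. None of the genes of these 3 lists was at background in all columns, and the part of these cell types in the Sfrp1 values was not tested.

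**Figure D2:**
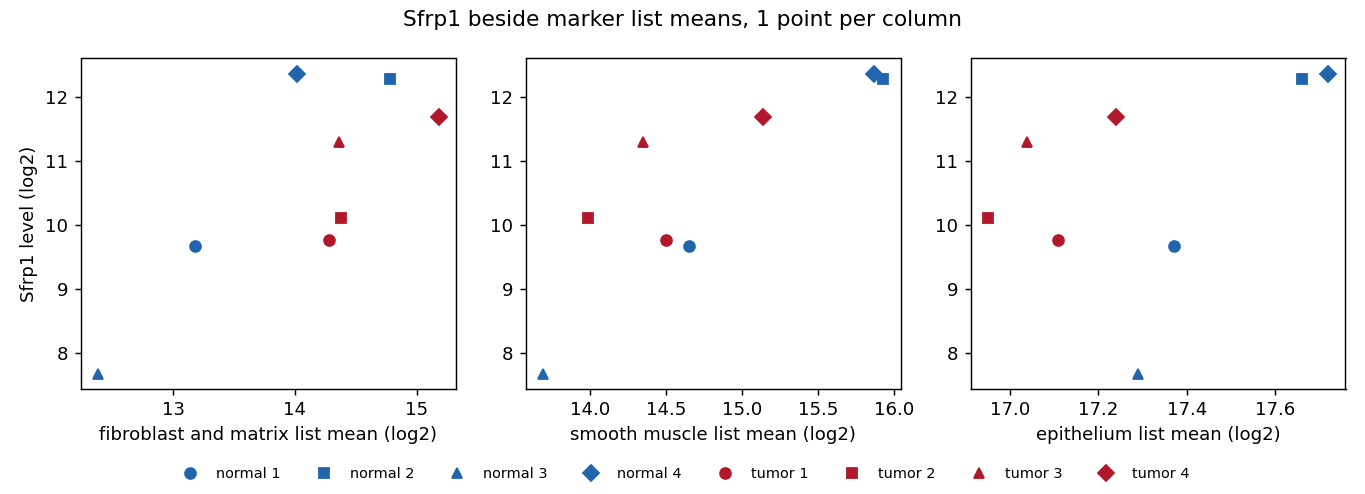
Log2 level of Sfrp1 in each column (y axis) against the mean log2 level of 8 fibroblast and matrix, 8 smooth muscle and 8 epithelial marker genes (x axes), with 1 point per column, blue for normal and red for tumor. Normal 3 is lowest for Sfrp1 (7.68) and for the first pair of lists (12.38 and 13.69), and normals 2 and 4 are the highest for Sfrp1.

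Rnf43 and Znrf3 are related ubiquitin ligases in the cell membrane that remove Frizzled receptors and are held back by R-spondins. Rnf43, read on chromosome 11 at 87551637 to 87551696 (mm8, plus strand), was at 15.95, 16.63, 15.97 and 15.73 in tumors 1 to 4 and at 14.10, 14.28, 15.30 and 14.28 in normals 1 to 4. Normals 1, 2 and 4 lay within 0.18 of each other, and normal 3 was 1.08 above their mean and 0.43 below the lowest tumor. Rnf43 rose by 1.58 ± 0.31 (SE), 2.99-fold (limma adjusted p = 0.0228, 0.0494 with the pairs as a block), and by 1.85 ± 0.23 without normal 3 (adjusted p = 0.00263). A dim second Rnf43 probe at 87546652 to 87546711, drawn from another transcript record, overlapped between the groups with a difference of 0.77 ± 0.51 (SE, adjusted p = 0.278 over all probes), and normal 3 was low there, at 7.0.

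Znrf3, read on chromosome 11 at 5176747 to 5176806 (mm8, minus strand), had the smallest rise of the 8. Its log2 level was 11.07, 11.27, 10.70 and 10.58 in tumors 1 to 4 and 9.75, 9.92, 10.14 and 9.98 in normals 1 to 4. The spread of the normals was small, normal 3 was 0.26 above the mean of the others, and the lowest tumor was 0.44 above normal 3. Znrf3 rose by 0.96 ± 0.19 (SE), 1.94-fold (limma adjusted p = 0.0224), a call lost with the pairs as a block (adjusted p = 0.0561). Without normal 3 the rise was 1.02 ± 0.20 (SE, adjusted p = 0.00994).

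Apcdd1, a membrane glycoprotein that binds Wnt and its co-receptor, has 2 probes on chromosome 18. The brighter, at 63079017 to 63079076 (mm8, plus strand), read 16.66, 17.27, 16.60 and 15.76 in tumors 1 to 4 and 10.59, 10.88, 15.56 and 11.10 in normals 1 to 4. Normals 1, 2 and 4 were close together, while normal 3 was 4.70 above their mean and 0.21 below the lowest tumor. Apcdd1 rose by 4.54 ± 1.08 (SE), 23.3-fold (limma adjusted p = 0.0343, 0.0556 with the pairs as a block), and by 5.72 ± 0.34 without normal 3 (adjusted p = 0.00026). The second probe, at 63062290 to 63062349, read 8.61, 9.23, 8.97 and 8.15 in tumors and 6.36, 4.88, 8.26 and 4.82 in normals. There normal 3 exceeded tumor 4, and the difference of 2.66 ± 0.75 missed the threshold (SE, limma adjusted p = 0.0545 over all probes), with 3.39 ± 0.44 without normal 3 (adjusted p = 0.00285). Normals 2 and 4 were below 5.59 on this second probe. It was not well above background in the scanner files of columns normal 1 and normal 2, so its difference is limited by background.

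Nkd1, which sits at the inner face of the membrane and binds dishevelled, has 2 probes on chromosome 8 that gave like differences. The brighter, at 91482365 to 91482424 (mm8, plus strand), read 16.70, 17.02, 16.38 and 16.14 in tumors 1 to 4 and 11.62, 12.54, 15.25 and 12.39 in normals 1 to 4. Normal 3 was 3.06 above the mean of the other normals and 0.88 below the lowest tumor. Nkd1 rose by 3.61 ± 0.73 (SE), 12.2-fold (limma adjusted p = 0.0235, 0.0494 with the pairs as a block), and by 4.37 ± 0.30, 20.7-fold, without normal 3 (adjusted p = 0.000334). The second probe, at 91482622 to 91482681, rose by 3.14 ± 0.62 (SE, adjusted p = 0.0232 over all probes). Over the 14 member probes, 9 rose and 0 fell, against 5.62% of all kept probes called higher.

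**Figure D3:**
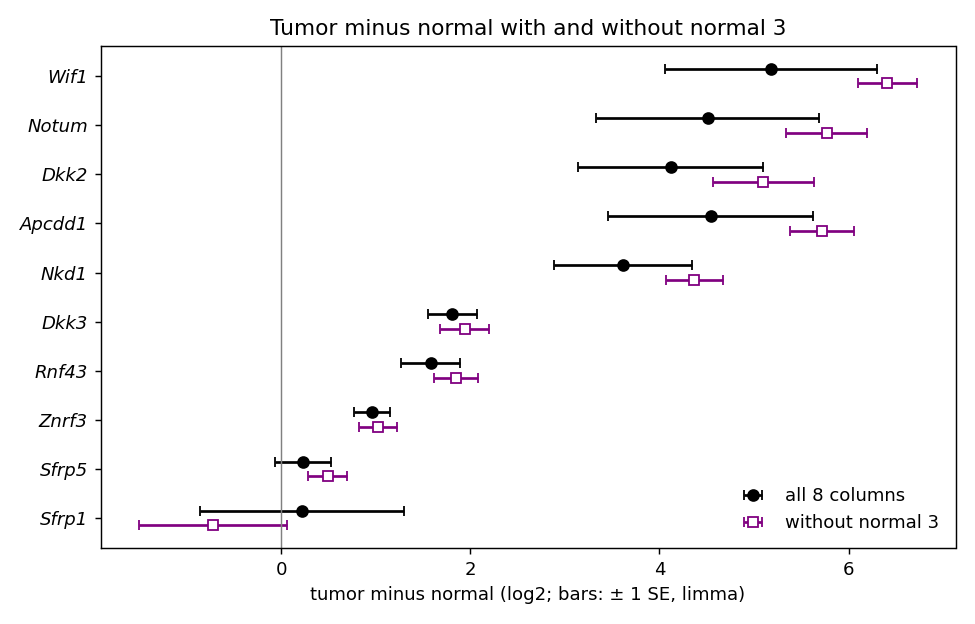
Tumor minus normal on the log2 scale for each gene (points) with ± 1 SE from limma (bars), over all 8 columns (black) and without the column normal 3 (purple squares). Wif1 moves from 5.18 to 6.41 and its SE from 1.12 to 0.31, Dkk3 moves from 1.81 to 1.94, and Sfrp1 changes sign from 0.22 to -0.72.

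The position of normal 3 between the groups was shared by the members that rose. In 8 of 10 genes normal 3 was above the other 3 normals and below all 4 tumors, against 6.93% of all genes. That position is open only to genes whose groups do not overlap with tumors higher, which were 2579 of 21633. Of those 2579 genes 1500 had it, so it is not particular to the members. Its distance above the mean of the other normals was 4.90 for Wif1, 4.70 for Apcdd1, 3.89 for Dkk2 and 3.06 for Nkd1, and 1.08, 0.56 and 0.26 for Rnf43, Dkk3 and Znrf3. Notum is left out of this order because its other normals are at or near background. On the tumor side the order was shared too: tumor 2 was the highest tumor in 8 of the 8 genes and tumor 4 the lowest in 7 of 8. Among all genes called higher, tumor 2 was the highest tumor in 63.8% and tumor 4 the lowest in 57.2%. The columns share their RNA and array across genes, so these are descriptions of 8 columns and not independent observations.

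Same-numbered columns deviated together over all genes, and the numbers in the titles were treated as pairs, although some columns of different number correlated as strongly. Tumors and normals differ in Tcf4 genotype by their labels, so a pair is not tissue of 1 mouse. What the columns of a pair share is not stated. The Wif1 difference was 6.10, 6.64, 1.6 and 6.39 in pairs 1 to 4, and that of Notum 4.84, 6.64, 0.62 and 5.93. Dkk3 varied less, with 2.24, 2.04, 1.46 and 1.47. In the 8 genes whose groups do not overlap, any pairing must put all 4 pairs higher in the tumor. For Sfrp1 2 of 4 pairs were higher. With the pairs as a block, 4 of the 10 genes passed (Wif1, Nkd1, Rnf43 and Dkk3), against 3.67% of all genes called higher. Pair 1 lies within slide 1 and pair 2 within slide 2, as traced through the scanner files, and the slides of pairs 3 and 4 are not known. For pairs 1 and 2 the block therefore cannot be told apart from slide.

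With those 4 traced columns alone and slide as a block, the difference was 6.37 ± 0.29 for Wif1, 6.23 ± 0.27 for Apcdd1, 5.79 ± 0.26 for Dkk2 and 2.14 ± 0.26 for Dkk3 (SE, 2 against 2 columns). In that fit limma called 0 of 21633 genes, with 7361 at an unadjusted p under 0.05, and the adjusted p was 0.0692 for Wif1. Normal 3 is not among the traced columns, and column tumor 2 was traced to the file labelled normal 4.

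The calls of the members lie near the threshold and depend on single columns. Wif1, Notum, Dkk2 and Apcdd1 missed it when any of the 7 columns other than normal 3 was left out, with limma adjusted p of 0.0524 to 0.0819 for Wif1, 0.0784 to 0.116 for Notum, 0.0698 to 0.0985 for Dkk2 and 0.0593 to 0.0985 for Apcdd1. Nkd1, Rnf43 and Znrf3 passed without normal 3 or without tumor 4 and missed it otherwise, at up to 0.0728, 0.0713 and 0.0678. Dkk3 missed it without tumor 3 (adjusted p = 0.0595) or without normal 4 (adjusted p = 0.053) and passed in the other 6 cases. Over these 7 cases the difference ran from 4.60 to 5.36 for Wif1 and from 1.66 to 1.99 for Dkk3. It moved by over 1.5 times in fold for Dkk2, to 3.42 without normal 1, and for Notum, to 3.86 without normal 4. At an unadjusted p under 0.05 were 8 of 10 genes with all columns (32.4% of all genes), 8 of 10 in each of these 7 cases (24.0% to 28.4%) and 9 of 10 without normal 3 (59.1%). Without normal 3, 8 of 10 passed, against 31.7% of all genes called higher.

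**Figure D4:**
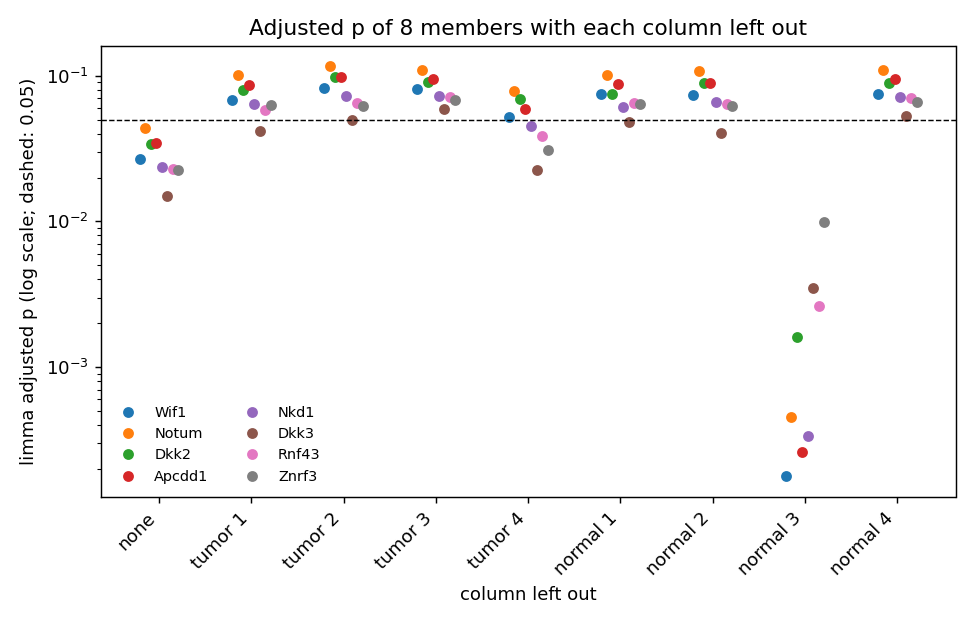
Limma adjusted p (log scale) of the 8 genes that passed, over all columns (none) and with each column left out in turn; the dashed line is the threshold of 0.05. All 8 lie below the line with all columns; with 1 of the other 7 columns left out at most 5 do for any gene (Dkk3), and without normal 3 they run from 0.000178 (Wif1) to 0.00994 (Znrf3).

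Among other Wnt pathway genes both directions occurred. Of 55 listed genes tested, 15 rose and 5 fell, against 7.00% and 7.54% of all genes. On the list of other secreted and membrane inhibitors 17 genes were tested: 2 rose, 1 fell and 14 did not pass. Their median difference was 0.40. Without normal 3, 7 of the 17 rose and 1 fell, beside 31.7% of all genes higher and 4278 of 21633 lower. Axin2 is on that list although its product, a scaffold of the beta-catenin destruction complex, works inside the cell. It rose by 1.61 ± 0.38 (SE, limma adjusted p = 0.0326, 0.0601 with the pairs as a block). In normal 3 Axin2 was at 14.16, against 12.47 to 12.97 in the other normals. Igfbp4, a binding protein of insulin-like growth factors that also blocks Wnt, rose by 1.78 ± 0.30 (adjusted p = 0.0179). Shisa2, which holds Frizzled inside the cell, fell by 1.18 on the log2 scale (adjusted p = 0.0204).

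Close relatives of the members did not pass the test. The dickkopf gene Dkk1 differed by 2.21 ± 1.07 (SE, limma adjusted p = 0.188), with normals 2 and 4 at 3.20 and 3.26, below background, and normals 1 and 3 at 6.9 and 7.74. Normal 1 was below that column's own background limit of 7.7. Without normal 3, which leaves only normals at background, the fitted Dkk1 difference was 3.03 and passed (limma adjusted p = 0.0277). Nkd2, the relative of Nkd1, differed by -0.20 ± 0.22 (adjusted p = 0.505). Sfrp2 and Sfrp4 differed by -0.14 ± 0.60 and 0.88 ± 0.52 (adjusted p = 0.864 and 0.236). Of the 20 listed, Dkk4, Trabd2b and Cer1 were not tested. Differences between these genes and the members were not tested.

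R-spondins, which counter Rnf43 and Znrf3, and their receptors gave 1 rise and 1 fall among 7 genes, with a median of 0.25. Over all genes 7.00% were called higher and 7.54% lower. Without normal 3 there were 3 rises and 2 falls, beside 31.7% of all genes higher and 4278 of 21633 lower. Lgr6 rose by 2.71 ± 0.72 (SE, limma adjusted p = 0.0453, 0.0953 with the pairs as a block) although tumor 3 at 7.37 was below normal 3 at 7.63. In normals 2 and 4 Lgr6 was at 4.26 and 5.55, below the background limit of 5.59. In normal 1 it was at 5.97, below that column's own limit of 7.7, so the Lgr6 difference is limited by background. Lgr4 fell by 0.79 on the log2 scale (adjusted p = 0.0296). Lgr5, a stem cell marker, differed by 1.15 ± 0.35 (adjusted p = 0.0648), or by 1.49 without normal 3 (adjusted p = 0.00404). Of 15 receptors and co-receptors, 1 rose and 3 fell, with a median of 0.08. Without normal 3, 3 rose and 4 fell, again beside 31.7% of all genes higher and 4278 of 21633 lower. Fzd10 rose by 3.05 ± 0.79 (adjusted p = 0.0434, 0.0569 with the pairs as a block), with normal 3 at 10.74, above tumor 4 at 10.63, and normals 1, 2 and 4 at 7.26 to 7.43. Lrp6, a co-receptor that dickkopf proteins bind, fell by 1.44 on the log2 scale (adjusted p = 0.0288), and the receptors Fzd5 and Fzd8 fell by 1.53 and 1.28. Porcn and Wls, which lipidate and carry Wnt for release, differed by 0.09 and -0.27, and neither passed.

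Of 14 Wnt target genes of gut epithelium, 11 rose, 0 fell and 3 did not pass, beside 7.00% of all genes called higher. Their median difference was 1.63 beside 0.15 over all genes. This list was chosen with earlier results of these data known, so its counts are a description and not a test. The transcription factor gene Sp5 was at 13.83, 13.99, 13.41 and 13.12 in tumors and at 8.14, 6.64, 12.44 and 6.81 in normals, the same order of columns as in the members: normal 3 between the groups and tumor 4 the lowest tumor. Sp5 rose by 5.08 ± 1.22 (SE, limma adjusted p = 0.0344, 0.0576 with the pairs as a block), Prox1 by 3.65 ± 0.76 (adjusted p = 0.0247, 0.0533 with the block) and Lef1 by 3.45 ± 0.70 (adjusted p = 0.0235, 0.0511 with the block). The list mean was 12.77 to 13.32 in tumors, 12.23 in normal 3 and 10.42 to 10.56 in the other normals. With the pairs as a block 3 of the 14 passed (Cd44, Ephb3 and Tcf7), and without normal 3 13 did. Over all genes 3.67% were called higher with the block and 31.7% without normal 3.

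**Figure D5:**
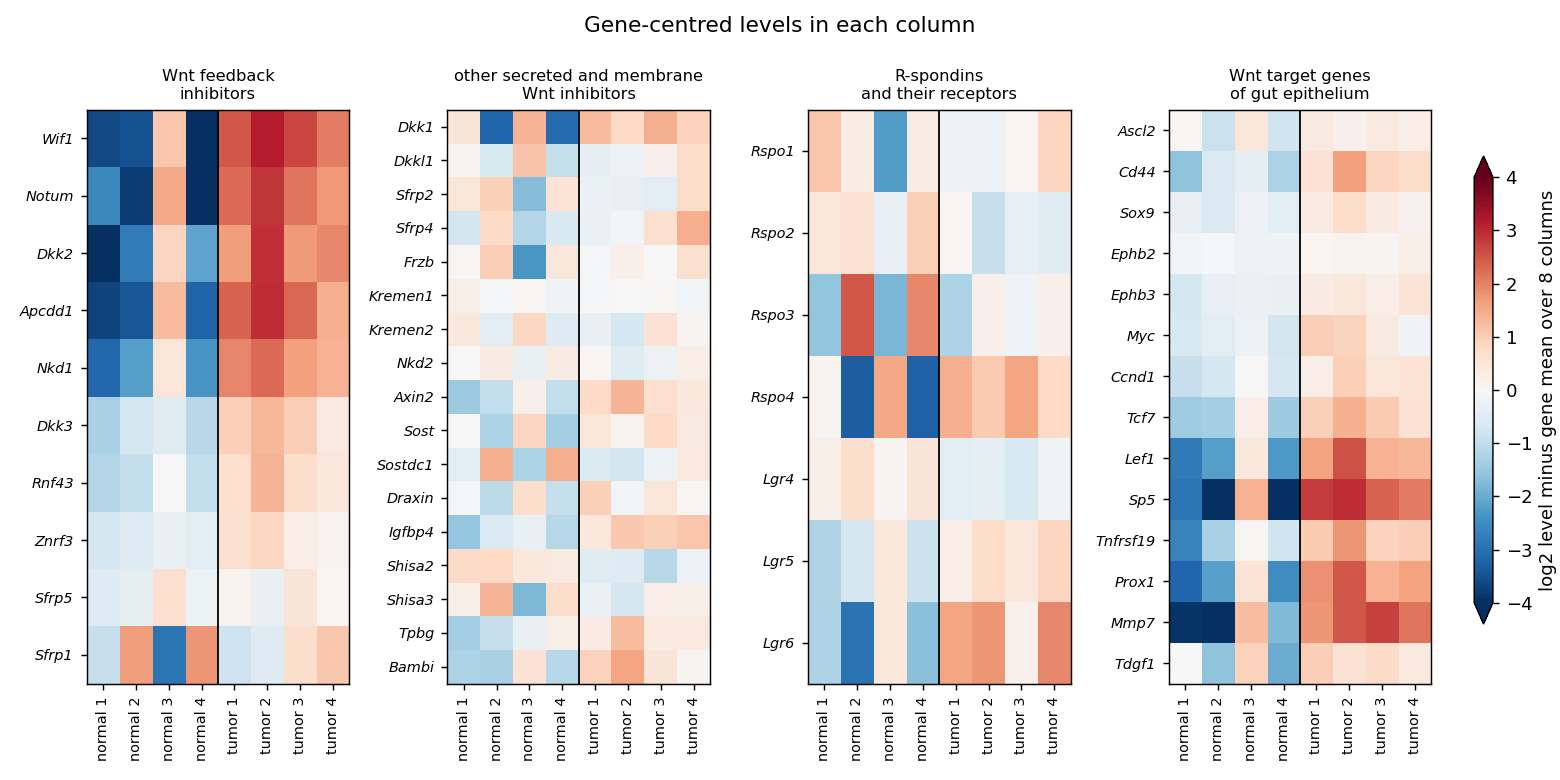
Log2 level minus the gene's mean over the 8 columns (colour scale, -4 to 4) for the 10 genes, other Wnt inhibitors, R-spondins with their receptors, and Wnt target genes; columns are samples, with normals left of the black line. Most members and targets are red in tumors and blue in normals 1, 2 and 4, with normal 3 pale or red.

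The genes whose pattern over the 8 columns was most like that of a member were found by the root mean square difference of gene-centred log2 values among 21560 other genes with a value in every column. For Notum the nearest were Sp5 (0.34) and Spock2 (0.37), and for Wif1 Spock2 (0.28) and Il1rl1 (0.36). For Rnf43 they were Ccdc92 (0.11) and Axin2 (0.13), for Nkd1 Aif1l (0.13) and Prox1 (0.15), and for Apcdd1 Sox17 (0.32) and the transcript listed as 2810404F17Rik (0.38). For Dkk3 they were Lysmd2 (0.17) and Pfkfb3 (0.18), and for Znrf3 Bcl2l11 and Tnks2 (0.11 each). Sfrp1 was nearest to Cyp2e1 (0.44) and to Fbn1 (0.49), which encodes the matrix protein fibrillin. Sfrp5 was nearest to the transcripts listed as AK027918 (0.07) and 1700009J07Rik (0.09), and its own range was small. A gene with a small range has small distances to many genes, so these distances are not compared between members.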

How the data were processed

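Scanner output is the processed intensity of each spot, made with Agilent Feature Extraction 9.5.1.1 on a design with mm8 coordinates, per the file headers; the submitters' processing notes name version 10.1.1.1. The deposited value table was found to hold log2 values, already quantile-normalised: all columns share a median of 8.51 and a 75th percentile of 11.4, and in the 4 traced columns the slope on log2 scanner signal was 0.891 to 1.06. A probe was kept when at least 4 of 8 columns reached 5.59. That limit is the middle of the traced columns' own limits, each the value below which 95% of spots lie that Feature Extraction did not call well above background; for normal 1 alone it was 7.7. Of 41174 probes 31870 were kept. Names came from accessions, symbols or synonyms in a RefSeq gene table (GRCm38.p6), used for names only, for 33113 probes, and 8061 kept the file's name.

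Tumors were set against normals by a linear model in limma 3.58.1 (R 4.3.3, moderated by eBayes, 2-sided, Benjamini-Hochberg over all genes, threshold 0.05) without a block; the scripts were tested on simulated data. Deviations of same-numbered columns from their group means correlated at 0.239, 0.356, 0.534 and 0.362 over 21561 genes (Pearson). All 4 exceed 0.1, the rule for taking the title numbers as pairs, but columns of different number reached 0.38 (tumor 4 with normal 2), 0.352 (tumor 2 with normal 4) and 0.279 (tumor 1 with normal 3), so the values do not single out these pairs. The blocked value is printed where it changes a member's call. Precision is limited by 4 arrays per group. All 10 members were named with every probe, and for each the 2 genes nearest in pattern, which for Dkk2 are not reported here; members and lists were chosen with earlier results of these data known. Alternatives changed the filter, the probe rule, the scaling, the weights, the values, the slide and the columns used.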

Additional observations from a re-analysis of the deposited data

Results flagged for a closer look

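In 3 of 20 groups of 4 values (10 genes, normals and tumors), 1 column was far from the other 3 by Dixon's ratio, the gap to the nearest column divided by the whole range, above the 95% critical value for 4 samples. Chance gives about 1 in 20 groups. The genes were read on the same columns, so 1 odd column can flag several genes, and the 3 flags are not independent. In all 3 it was normal 3 among the normals: the ratio was 0.843 for Wif1, 0.848 for Rnf43 and 0.898 for Apcdd1. For Wif1 normal 3 was at 13.65 against 8.23 to 9.08 in the other normals, and for Apcdd1 at 15.56 against 10.59 to 11.10. The cause was not tested. The fibroblast and matrix list mean was 12.38 in that column, below all others, its small intestine list mean of 11.21 was above all others, and its distal colon list mean of 14.15 was not below the other normals.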

How the results depend on the processing

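Centring each column on its median, adjusting over all probes, and the stricter filter left every member's brightest probe that was tested on its side of the threshold and in its direction; the stricter filter did not test Sfrp5, and second probes of Apcdd1 and Rnf43 missed the threshold. Without the filter only Notum moved across it, and with the mean of kept probes only Sfrp1 changed sign, to -0.09, no call changed, and the Apcdd1 difference was 3.60. Over all genes 1515 rose and 1632 fell. With the pairs as a replicate block the counts of rises were 4 members, 4 of 55 listed Wnt pathway genes and 794 of all genes. Array quality weights gave 28 rises and 13 falls among the listed genes and 9013 and 6165 over all, with Sfrp1 at -1.40. Tested probe by probe, 2494 probes fell. Centring gave 1073 rises and 2020 falls, 34.7% higher against 48.1%.

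Leaving out 1 column at a time gave 0 to 8 members called higher, 0 to 26 rises and 0 to 7 falls among the listed genes, and 16 to 6858 rises and 5 to 4278 falls over all genes, with the lowest counts of all genes without tumor 3 and the highest without normal 3. Sfrp1 ran from -0.72 to 0.84. The traced columns with slide as a block gave 0 calls in limma, with 7361 genes and 8 members at an unadjusted p under 0.05, and Sfrp1 at -1.03.

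The scanner files as filed also gave 0 calls in limma, with 433 genes at an unadjusted p under 0.05 after 75th percentile scaling and 510 after normexp and quantile normalisation, and 0 members at that level. There Sfrp1 was at -0.47 and -0.55, Znrf3 at -0.13 and -0.17, and Dkk3 at -0.01 in both, while the other 7 members were above 0. All results therefore depend on taking samples from the value table. The 4 files that match no column had a small intestine list mean of 1.18 to 3.64 relative to each array's 75th percentile, against -2.24 to -0.59 in the other 4, and a distal colon mean of -4.39 to -1.91 against 1.57 to 2.74.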

Other observations

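In the 4 scanner files that match no column of the value table, the members had a narrower range than in the 4 that do. Relative to each array's 75th percentile, Wif1 was at 0.48 to 2.71 in the former and at -2.76 to 4.30 in the latter, Notum at -1.35 to 0.45 and -7.20 to 0.84, and Apcdd1 at 0.75 to 2.26 and -0.89 to 5.78. Rnf43 was at 3.51 to 3.78 and 2.76 to 5.20, and Nkd1 at 3.52 to 4.75 and 0.24 to 5.55. For Sfrp5 the ranges were nearly as wide, at -5.48 to -3.60 and -5.21 to -3.29. The 4 files that match belong to columns of both groups, and the ranges were not counted over all genes. The sample behind each of these files is not settled, and they enter a comparison of groups only in the alternatives that take the files as filed.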
